A study of Homo sapiens with 10 samples.

Results

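The 10 genes described here belong to transforming growth factor beta (TGF-beta) signalling and were followed in DBTRG-05MG and U87 cells, both established human glioblastoma lines, during exposure to dibutyryl cAMP. This compound enters cells and acts like the second messenger cyclic AMP, the activator of protein kinase A. They are the ligands TGFB1 and TGFB2, the receptors TGFBR1 and TGFBR2, the feedback genes PMEPA1, SMAD7, SKIL, SKI and SMURF2, and the matrix target TGFBI. The genes were taken by symbol from the deposited table. All 10 were among its 20379 genes and among the 12352 with a mean of at least 1 FPKM (fragment counts scaled by transcript length and library size) that entered the tests. Every library came from cells at 1 mM dibutyryl cAMP by the labels, taken at 0, 6, 12, 24 or 48 h, which makes 10 libraries, 1 per line and time, and the 0 h library of each line was its reference. The series description gives another dose unit and a longer treatment, and the labels were followed. There were no replicates and no vehicle libraries at later times, so that time in culture and treatment cannot be told apart.

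TGF-beta ligands are secreted in a latent form. Once released, they bind the type II receptor TGFBR2, which phosphorylates the type I receptor TGFBR1. TGFBR1 then phosphorylates SMAD2 and SMAD3, which join SMAD4 and act on target genes in the nucleus. Several targets feed back on the pathway: SMAD7 blocks the receptor and recruits the ubiquitin ligase SMURF2, PMEPA1 withholds receptor SMADs, and the co-repressors SKI and SnoN (encoded by SKIL) hold SMAD complexes inactive. In glioblastoma the pathway is known for invasion, immune suppression and maintenance of stem-like cells.

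Promoter sequence is shown first for both members whose window held the full cAMP response element, the site bound by CREB, and for TGFB2, whose window held its short form beside a SMAD-binding element. RefSeq windows on GRCh38.p14 running from 250 bases before a transcription start to 50 after it were at hand for 9 of the 10 members (22 windows, all but SKI). The motifs searched on both strands were TGACGTCA (full cAMP response element), TGACG (its short form, which lies within the full one), GTCTAGAC and CAGACA (SMAD-binding elements) and TGANTCA (an AP-1 site). The full element occurred in 1.85% of all 35116 windows and in 2 members, SKIL and PMEPA1. The 3 sequences run from 130 bases before a start site to 20 after it, 5′ to 3′ on the strand of the gene. Capitals mark the matches to the full and short cAMP response elements and to CAGACA. They lie at chr3:170357585-170357734 (plus strand), chr20:57709996-57710145 (minus strand) and chr1:218345206-218345355 (plus strand).
SKIL: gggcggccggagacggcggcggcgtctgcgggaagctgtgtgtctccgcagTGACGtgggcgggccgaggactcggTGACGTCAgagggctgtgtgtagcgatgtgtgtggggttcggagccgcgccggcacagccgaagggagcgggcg
PMEPA1: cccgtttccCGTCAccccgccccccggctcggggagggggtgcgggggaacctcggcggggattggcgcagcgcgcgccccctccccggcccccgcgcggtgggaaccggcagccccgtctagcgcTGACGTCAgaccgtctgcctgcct
TGFB2: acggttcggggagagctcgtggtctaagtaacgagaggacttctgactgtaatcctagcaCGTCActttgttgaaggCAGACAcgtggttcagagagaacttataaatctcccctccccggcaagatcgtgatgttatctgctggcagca
In SKIL the full element began 54 bases before the start site and a further TGACG began 79 bases before it. In PMEPA1, in 1 of its 4 windows, the full element began 4 bases before the start site and so spanned it, and the short form began 121 bases before it on the other strand. TGFB2 held the short form on the other strand from 70 bases before the start and CAGACA from 53 bases before it. The short form, present in 24.6% of all windows, was also found in 1 of 8 windows of TGFBR1. That window held CAGACA as well, from 244 bases before the start. CAGACA, present in 16.9% of all windows, was found in 1 other window of PMEPA1, 2 of TGFBR1 and the window of SMURF2. TGANTCA (7.71% of all windows) was found in TGFBR2, and GTCTAGAC (0.202%) in 0 members. The windows of SMAD7, TGFB1 and TGFBI held none of these letters. Which start sites these cells used was not measured, and a match is a description of the letters.

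Total FPKM ran from 405316 to 487281 over the 10 libraries. Relative depth, read from the step of 1 fragment at low values, reached at most 116.8% of that of the shallowest library, and 1 FPKM stood for about 8.9 fragments per kilobase of transcript, an approximate scale from 35 genes. Of 8 glial and glioma markers, VIM, CD44, NES and SOX9 were above 4 FPKM in every library, and GFAP and S100B did not exceed 0.51 FPKM in either line. SOX2 was at 23 to 36.6 FPKM in DBTRG-05MG and listed at 0 in U87. OLIG2 was at 0 to 0.462 FPKM in DBTRG-05MG and at 0.307 to 2.01 FPKM in U87. The leukocyte markers PTPRC and CD3E, the endothelial markers PECAM1, VWF and CDH5 and the epithelial markers EPCAM and CDH1 stayed below 1 FPKM. The macrophage and lysosomal marker CD68 ranged in DBTRG-05MG from 62.4 to 113 FPKM and in U87 from 326 to 645 FPKM, and the sum of the neuronal markers RBFOX3, SYT1 and SNAP25 from 6.49 to 16.2 FPKM over both lines. SNAP25 made up most of that sum (4 to 11.8 FPKM), SYT1 stood at 1.23 to 4.49 FPKM, and RBFOX3 did not exceed 0.191 FPKM. Against 0 h, the median log2(FPKM + 1) of the tested genes moved by -0.10 in DBTRG-05MG at 6 h and by -0.22 and -0.24 in U87 at 24 and 48 h. In the other treated libraries it moved by at most 0.05 in either direction.

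At 6 h TGFBR1 and the feedback genes PMEPA1, SMAD7, SKIL and SKI stood above 0 h in both lines, and SMURF2 did so in DBTRG-05MG but not in U87. With TGFBI, these were 6 of the 10 members higher in both lines at 6 h, against 22.3% of all tested genes. TGFBR1, PMEPA1, SMAD7 and SKIL, 4 of 10, were at least 1.5-fold higher in both lines, as were 2.25% of the tested genes, and PMEPA1 was at least 2-fold higher in both (0.874% of the tested genes). TGFBR1, PMEPA1, SMAD7 and TGFBI, 4 of 10, were above their 0 h level at all 4 treated times in both lines, against 2.55% of the tested genes. The opposite pattern, lower at all 4 treated times in both lines, was met by 0 members and by 6.2% of the tested genes. At 48 h, 5 members were higher in both lines (23.6% of the tested genes) and 2, TGFBR2 and SMURF2, were lower in both (36%). These counts are sizes without a test, and all comparisons share the 0 h libraries. The members were chosen with earlier results of these data known, and the 1.5-fold and 2-fold bounds were set with the values known. The shares beside them are therefore a description.

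**Figure D1:**
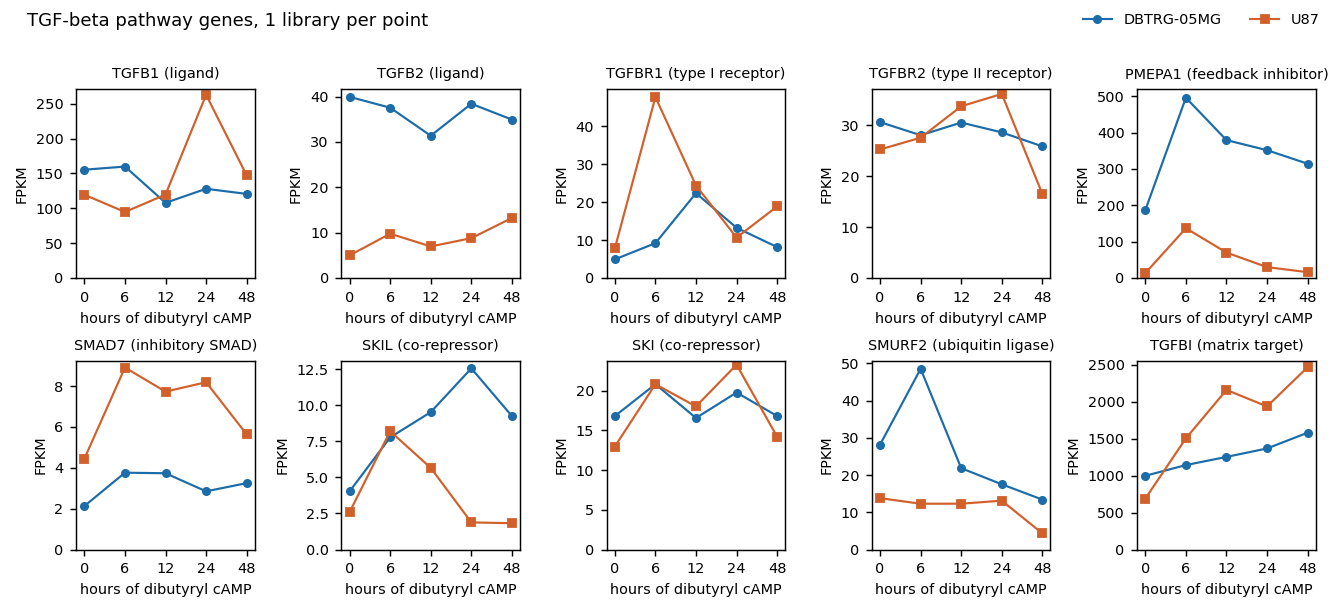
FPKM of the 10 genes (vertical axis, linear from 0, own scale in each panel) at 0, 6, 12, 24 and 48 h (horizontal axis, times evenly spaced) in DBTRG-05MG (circles) and U87 (squares), 1 library per point. PMEPA1 is highest at 6 h in both lines, TGFBI is highest at 48 h in both, and SMURF2 is lowest at 48 h in both.

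None of the 10 passed limma's test over all genes in any of the 4 comparisons. For the mean of the treated times against 0 h, 0 of 10 members had an adjusted p under 0.05, where 3 of 12352 genes did (0.0243%: IL11, PTGES and PDE4B, the last pair named after their values were seen). At an unadjusted p under 0.05 there were 4 members, PMEPA1, TGFBI, TGFBR1 and SMAD7, and 5.85% of all tested genes. At 6 h against 0 h, 0 members and 1 gene, IL11, were called (0.0081%), with 3 members (PMEPA1, TGFBR1 and SMAD7) and 5.31% of the genes at an unadjusted p under 0.05. At 48 h against 0 h, 0 members and 0 genes (0%) were called, with 2 members (SMURF2 and TGFBI) and 12.2% of the genes at an unadjusted p under 0.05. For the difference in time trend between the lines, 0 members and 2 genes (0.0162%: SLC18A1 and TGM3, also named after their values were seen) were called, with 2 members (SKIL and TGFB2) and 13.4% of the genes at an unadjusted p under 0.05. The spread behind the first 3 tests is the disagreement between the 2 lines over all times, with 4 residual degrees of freedom. A member that was higher in both lines by different amounts therefore carries a wide error.

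**Figure D2:**
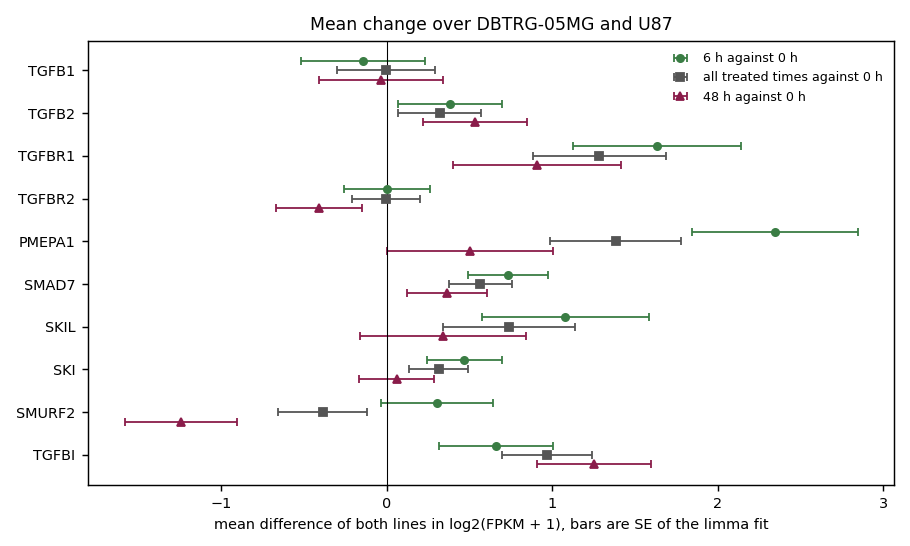
Mean difference of DBTRG-05MG and U87 in log2(FPKM + 1) (horizontal axis) for each gene (vertical axis) at 6 h, over all treated times and at 48 h, each against 0 h, with bars showing the SE of the limma fit. PMEPA1 at 6 h has the highest estimate, 2.35, and SMURF2 at 48 h the lowest, -1.24.

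Among the ligands, TGFB1 was abundant in both lines and TGFB2 differed between them. TGFB1, on chromosome 19 (41301587 to 41353911, minus strand, GENCODE 29 on GRCh38 for this and the positions that follow), stood at 155, 160, 108, 128 and 121 FPKM in DBTRG-05MG at 0, 6, 12, 24 and 48 h. In U87 it stood at 119, 94.6, 120, 263 and 147 FPKM. The U87 24 h library was the highest of the 10, at 2.2-fold its own 0 h level, and the other 9 lay between 94.6 and 160 FPKM. The exons of TGFB1 overlap those of HNRNPUL1, a gene on the opposite strand, over 215 bases, and the library protocol in the labels describes no step that marks strand. HNRNPUL1 stood at 107, 78.8, 94.1, 186 and 71.1 FPKM in U87, also highest at 24 h, and its part in the TGFB1 values was not tested. The straight trend of TGFB1 over the ranked times was 0.31 ± 0.15 log2 units per step higher in U87 than in DBTRG-05MG (SE, limma adjusted p = 0.397). It was 0.21 higher without the U87 24 h library and 0.48 higher without the U87 48 h library.

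TGFB2, on chromosome 1 (218346235 to 218444619, plus strand), encodes the isoform first isolated as a glioblastoma-derived suppressor of T cells. Its exons share 1371 bases with TGFB2-OT1 on the same strand, which was not analysed here. It stood at 39.9, 37.6, 31.4, 38.4 and 34.9 FPKM in DBTRG-05MG and at 4.97, 9.75, 6.95, 8.77 and 13.2 FPKM in U87. All 4 treated DBTRG-05MG libraries were below their 0 h level and all 4 treated U87 libraries were above theirs, a pattern met by 1.73% of the tested genes. In DBTRG-05MG the difference was small, 0.79 to 0.96 of the 0 h level, and at 6 h it turned to +0.02 on the log2 scale once the library median was subtracted. In U87 the level was 1.4- to 2.66-fold that at 0 h. The difference in trend was 0.27 ± 0.11 log2 units per step (SE, limma adjusted p = 0.344). DBTRG-05MG kept the higher level at all 5 times, by 8.03-fold at 0 h and 2.64-fold at 48 h. TGFB2 and PMEPA1 were the 2 of 10 members whose DBTRG-05MG level was 2-fold or more that of U87 at every time, against 13.1% of the tested genes.

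The type I receptor gene TGFBR1 was higher during treatment in both lines, whereas the type II receptor gene TGFBR2 stood at 0.92 to 1.43 of its 0 h level up to 24 h. TGFBR1, on chromosome 9 (99104038 to 99154192, plus strand), stood at 4.89, 9.17, 22.4, 13.2 and 8.14 FPKM in DBTRG-05MG and at 7.78, 47.8, 24.4, 10.7 and 18.9 FPKM in U87. The highest library was that at 12 h in DBTRG-05MG (4.57-fold the 0 h level) and that at 6 h in U87 (6.14-fold), and the 0 h library was the lowest in both lines. The mean log2 difference was 1.63 ± 0.51 at 6 h (SE, n = 2 lines, limma adjusted p = 0.768) and 1.28 ± 0.40 over all treated times (limma adjusted p = 0.814). The 6 h value was 0.69 without the U87 6 h library and 2.57 without the DBTRG-05MG 6 h library. TGFBR1 and TGFBI were the 2 members at least 1.5-fold higher at 48 h in both lines, against 4.11% of the tested genes.

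TGFBR2 lies on chromosome 3 (30606502 to 30694142, plus strand). It stood at 30.7, 28.1, 30.6, 28.6 and 25.9 FPKM in DBTRG-05MG and at 25.3, 27.6, 33.8, 36.2 and 16.5 FPKM in U87. The 48 h library was the lowest in each line, a pattern that TGFBR2 shared with SMURF2 and with 13% of the tested genes. Its mean log2 difference at 48 h was -0.41 ± 0.26 (SE, limma adjusted p = 0.551), with -0.08 without the U87 48 h library and -0.74 without the DBTRG-05MG 48 h library. In 9 libraries other than the U87 48 h library TGFBR2 lay between 25.3 and 36.2 FPKM, so that FPKM of TGFBR1 exceeded that of TGFBR2 only in U87 at 6 and 48 h.

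PMEPA1 encodes a membrane protein that binds receptor SMADs and is itself a TGF-beta target. The gene lies on chromosome 20 (57648392 to 57711536, minus strand). It stood at 186, 496, 379, 352 and 314 FPKM in DBTRG-05MG and at 13.1, 137, 69.7, 29.6 and 15.8 FPKM in U87. In both lines the 6 h library was the highest and each later library was lower than the one before. At 6 h the level was 2.66-fold that at 0 h in DBTRG-05MG and 10.41-fold in U87, and at 48 h 1.69-fold and 1.2-fold. The mean log2 difference was 2.35 ± 0.50 at 6 h (SE, n = 2 lines, limma adjusted p = 0.548) and 1.38 ± 0.40 over all treated times (limma adjusted p = 0.794). The 6 h value was 1.53 without the U87 6 h library and 3.16 without the DBTRG-05MG 6 h library. The trend difference between the lines was -0.27 ± 0.41 log2 units per step (SE, limma adjusted p = 0.782), and it was -1.13 (adjusted p = 0.0495) without the U87 0 h library, where 67 genes in all were called. Highest at 6 h in both lines was a pattern of PMEPA1 and SMAD7, 2 of 10 members, and of 3.98% of the tested genes. The exons of PMEPA1 overlap those of the antisense gene NKILA over 343 bases, and NKILA was not analysed here. DBTRG-05MG had 14.19-fold more PMEPA1 than U87 at 0 h, 3.63-fold more at 6 h and 19.86-fold more at 48 h.

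SMAD7, the inhibitory SMAD, was the least abundant member by FPKM in DBTRG-05MG. It lies on chromosome 18 (48919853 to 48952052, minus strand). It stood at 2.13, 3.76, 3.73, 2.85 and 3.25 FPKM in DBTRG-05MG and at 4.44, 8.91, 7.73, 8.19 and 5.64 FPKM in U87. Each treated library was above its 0 h library, by 1.34- to 1.77-fold in DBTRG-05MG and by 1.27- to 2-fold in U87. The lines were closest at 12 h (log2 differences of 0.60 in DBTRG-05MG and 0.68 in U87) and furthest apart at 24 h (0.30 and 0.76). SMAD7 had the smallest SE among the feedback genes apart from SKI, on a scale that understates changes of genes with low FPKM. Its mean log2 difference was 0.73 ± 0.24 at 6 h (SE, n = 2 lines, limma adjusted p = 0.775) and 0.57 ± 0.19 over all treated times (limma adjusted p = 0.814).

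Of the co-repressor genes, SKIL was further above its 0 h level than SKI at 6 h in both lines. SKIL, on chromosome 3 (170357678 to 170396835, plus strand), stood at 4.03, 7.77, 9.52, 12.6 and 9.25 FPKM in DBTRG-05MG and at 2.59, 8.19, 5.66, 1.88 and 1.82 FPKM in U87. In DBTRG-05MG all treated libraries were above 0 h and the highest came at 24 h (3.12-fold). In U87 the highest came at 6 h (3.16-fold), and the 24 and 48 h libraries were below 0 h, at 0.73 and 0.7 of its level. The ratio of DBTRG-05MG to U87 was 0.95 to 1.68 up to 12 h and 6.68 and 5.07 at 24 and 48 h. The trend was 0.51 ± 0.22 log2 units per step lower in U87 (-0.51, SE 0.22, limma adjusted p = 0.358), and without the U87 0 h library it was -0.90 with adjusted p = 0.0515. SKI, on chromosome 1 (2228695 to 2310119, plus strand), stood at 16.8, 20.8, 16.6, 19.8 and 16.8 FPKM in DBTRG-05MG and at 13, 20.8, 18, 23.3 and 14.2 FPKM in U87. Its treated libraries stood at 0.99 to 1.24 of the 0 h level in DBTRG-05MG and at 1.09 to 1.79 of it in U87. At 6 h the mean log2 difference was 1.08 ± 0.50 for SKIL (SE, limma adjusted p = 0.937) and 0.47 ± 0.23 for SKI (limma adjusted p = 0.937). That of SKIL was 0.39 without the U87 6 h library and 1.77 without the DBTRG-05MG 6 h library, and that of SKI was 0.28 without the U87 0 h library.

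SMURF2 encodes a ubiquitin ligase that SMAD7 brings to the receptor complex. The gene lies on chromosome 17 (64542295 to 64662068, minus strand). It stood at 28.2, 48.5, 21.8, 17.5 and 13.4 FPKM in DBTRG-05MG and at 13.8, 12.3, 12.3, 13.1 and 4.34 FPKM in U87. At 6 h the lines went opposite ways, 1.72-fold the 0 h level in DBTRG-05MG and 0.89 of it in U87. By 48 h the level was 0.48 of that at 0 h in DBTRG-05MG and 0.31 in U87. It was the 1 member at least 2-fold lower at 48 h in both lines, against 2.75% of the tested genes. Its mean log2 difference at 48 h was -1.24 ± 0.34 (SE, n = 2 lines, limma adjusted p = 0.195). In U87 the 4 libraries up to 24 h lay between 12.3 and 13.8 FPKM, so that the lower level there rested on the 48 h library alone. SMURF2 shares 167 exonic bases with CEP95 on the opposite strand, which stood at 6.28 to 16.1 FPKM.

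TGFBI, an extracellular matrix protein secreted in response to TGF-beta, had the highest FPKM of the 10 in every library. The gene lies on chromosome 5 (136028895 to 136063818, plus strand). It stood at 998, 1143, 1253, 1367.5 and 1580 FPKM in DBTRG-05MG and at 689, 1504, 2159, 1937 and 2467 FPKM in U87. The 48 h library was the highest in both lines, at 1.58-fold and 3.58-fold the 0 h level, a pattern met by TGFBI among the members and by 9.59% of the tested genes. DBTRG-05MG had the higher level at 0 h and U87 at each treated time. The mean log2 difference at 6 h was 0.66 ± 0.34 (SE, n = 2 lines, limma adjusted p = 0.943). At 48 h it was 1.25 ± 0.34 (SE, limma adjusted p = 0.198). Over all treated times it was 0.97 ± 0.27 (SE, limma adjusted p = 0.779). Without the U87 0 h library these values were 0.10 at 6 h, 0.69 at 48 h and 0.41 over all treated times, and without the DBTRG-05MG 0 h library they were 1.22 at 6 h and 1.52 over all treated times.

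**Figure D3:**
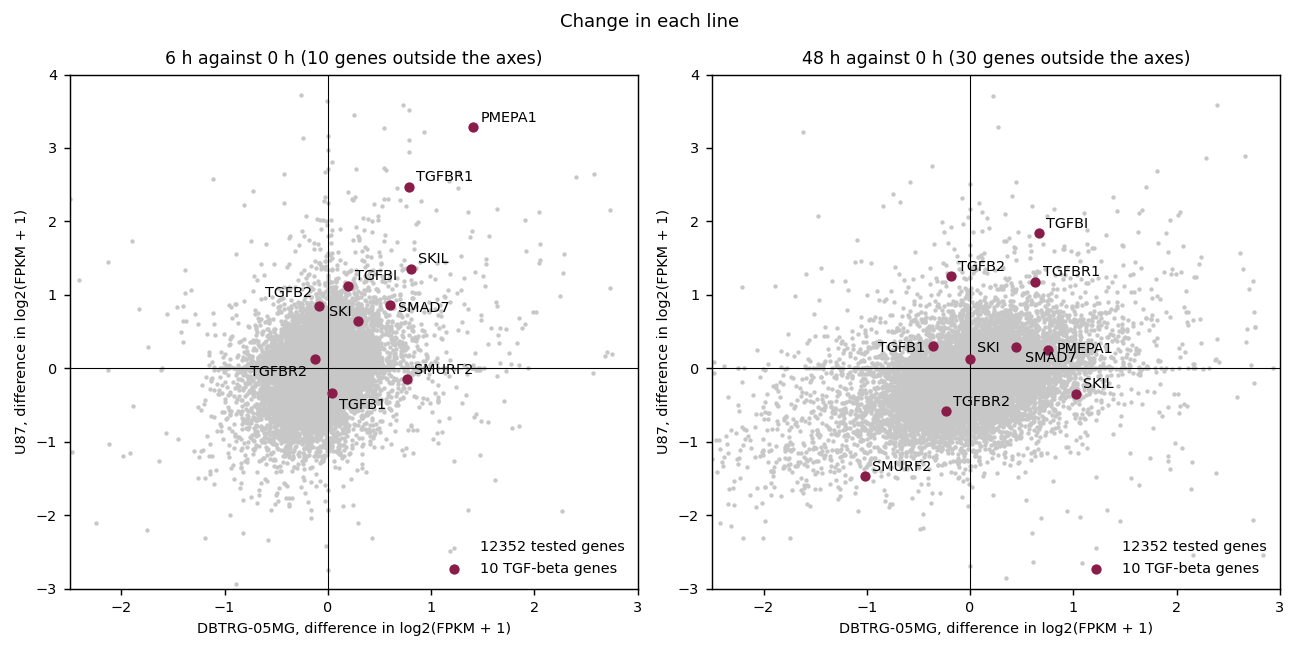
Difference in log2(FPKM + 1) from 0 h in DBTRG-05MG (horizontal axis) and U87 (vertical axis) at 6 h (left) and 48 h (right), with the 12352 tested genes in grey and the 10 TGF-beta genes labelled. At 6 h PMEPA1 (1.41 and 3.28) and TGFBR1 (0.79 and 2.47) lie farthest of the 10 genes into the quadrant where both lines are higher, and at 48 h SMURF2 (-1.02 and -1.47) lies in the opposite quadrant.

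By FPKM, which is per length, the members kept a wide order at 0 h. In DBTRG-05MG it ran TGFBI, PMEPA1, TGFB1, TGFB2, TGFBR2, SMURF2, SKI, TGFBR1, SKIL and SMAD7. In U87 it ran TGFBI, TGFB1, TGFBR2, SMURF2, PMEPA1, SKI, TGFBR1, TGFB2, SMAD7 and SKIL. Over the 5 times, TGFBI (998 to 1580 FPKM), PMEPA1 (186 to 496 FPKM) and TGFB1 (108 to 160 FPKM) did not overlap each other in DBTRG-05MG. Among its other genes, the range of SMURF2 (13.4 to 48.5 FPKM) overlapped those of TGFB2, TGFBR2 and SKI, and TGFBR1 (4.89 to 22.4 FPKM) overlapped SKIL (4.03 to 12.6 FPKM), SKI and SMURF2. In U87 only TGFBI lay apart from all others, since PMEPA1 (13.1 to 137 FPKM) overlapped TGFB1 (94.6 to 263 FPKM).

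Genes with the most similar course were sought for the 4 members whose log2(FPKM + 1) spanned at least 1 in both lines, among 1103 such genes. Likeness was the smaller of the Pearson correlations within DBTRG-05MG and within U87, each over 5 times. With 5 points that share 1 library each with every other gene, high values are common, and they are given as a description. PMEPA1 was most like MAFK (0.96 in DBTRG-05MG and 0.99 in U87), a small MAF transcription factor gene, and then the orphan nuclear receptor gene NR4A3 (0.92 and 0.96) and BDNF (0.92 and 0.97), a neurotrophin gene. SKIL was most like NHS (0.95 and 0.95), NNMT (0.94 and 0.93) and ID1 (0.91 and 0.91). TGFBR1 was most like PTS (0.94 and 0.89), GNG11 (0.89 and 0.98) and CSGALNACT1 (0.96 and 0.87). SMURF2 was most like TRIM21 (0.94 and 0.98), the cyclin D1 gene CCND1 (0.98 and 0.94) and EXOSC5 (0.93 and 0.97).

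The rest of the pathway was read through 6 gene lists, which were chosen with earlier results of these data known. Among 28 tested of 32 other TGF-beta targets, IL11 was the 1 gene called, higher over all treated times (mean log2 difference 4.28 ± 0.34, SE, limma adjusted p = 0.00591) and at 6 h. IL11 encodes a cytokine of the IL-6 family and stood at 8.82, 269.9, 262, 119 and 46.9 FPKM in DBTRG-05MG and at 5.9, 187, 337, 329 and 49.3 FPKM in U87. At 6 h 14 of the 28 targets were higher in both lines (22.3% of all tested genes) and 2 lower in both (35% of all tested genes). At 48 h 4 were higher (23.6%) and 5 lower (36%). The median log2 difference of the targets was 0.23 at 6 h and -0.06 at 48 h, beside -0.05 and -0.07 for all tested genes. For the 10 members it was 0.56 at 6 h and 0.35 at 48 h.

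By size, the connective tissue growth factor gene CTGF stood at 145, 204, 46.2, 36.6 and 38.8 FPKM in DBTRG-05MG and at 16.1, 71.2, 29.5, 25.8 and 13.2 FPKM in U87. The smooth muscle gene TAGLN stood at 9.56, 26.1, 17, 10.1 and 2.58 FPKM in DBTRG-05MG and at 1.58, 3.53, 5.79, 2.5 and 2.38 FPKM in U87. CTGF was thus above 0 h at 6 h and below it at 48 h in both lines, and TAGLN was above 0 h at 6 h in both and below it at 48 h in DBTRG-05MG. The angiogenic factor gene VEGFA stood on opposite sides of its 0 h level at 6 h, with 57.9 FPKM at 0 h and 35.5 FPKM at 6 h in DBTRG-05MG, and 116 and 268 FPKM in U87.

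Among 17 tested of 22 genes of TGF-beta latency and activation, 0 were called. Their median log2 difference was 0.12 at 6 h and 0.05 at 48 h. THBS1, a matrix protein that activates latent TGF-beta, stood at 265, 459, 325, 84.5 and 33.8 FPKM in DBTRG-05MG and at 2.75, 41.8, 19.7, 8.76 and 5.73 FPKM in U87. It was highest at 6 h in both lines, and at 48 h it was below its 0 h level in DBTRG-05MG and above it in U87. The plasminogen activator gene PLAU stood at 216, 585, 608, 594 and 270 FPKM in U87 and at 65.5 to 136 FPKM in DBTRG-05MG. The tissue-type activator PLAT stood in DBTRG-05MG at 341 FPKM at 0 h and 134 FPKM at 48 h, and in U87 at 6.69 and 16.5 FPKM (trend difference 0.64 ± 0.14 log2 units per step, SE, limma adjusted p = 0.193). FBN1, which encodes the microfibril protein that anchors latent complexes, ranged in DBTRG-05MG from 11 to 26 FPKM and in U87 from 105 to 210 FPKM.

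The list of other ligands and their binders had 5 tested of 12 genes and 0 called. The activin-binding FST stood at 29.5, 40.7, 61, 72.6 and 45.1 FPKM in DBTRG-05MG and at 6.45, 164, 118, 70.1 and 33.5 FPKM in U87, above 0 h in all 8 treated libraries. Its mean log2 difference over all treated times was 2.16 ± 0.58 (SE, n = 2 lines, limma adjusted p = 0.762). FSTL3, a relative of FST, stood in DBTRG-05MG at 36.3 FPKM at 0 h and 103 FPKM at 6 h, and in U87 at 2.71 and 4.88 FPKM. GDF11 ranged in DBTRG-05MG from 4.06 to 5.35 FPKM and in U87 from 7.02 to 13.95 FPKM. The median log2 difference of this list was 0.64 at 6 h and 0.22 at 48 h.

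Other receptors, with 7 tested of 10, had 0 called and medians of 0.04 at 6 h and -0.30 at 48 h. The BMP and activin receptor ACVR1 went from 16.3 to 37.8 FPKM in U87 between 0 and 6 h and from 7.06 to 6.03 FPKM in DBTRG-05MG. At 12, 24 and 48 h ACVR1 stood at 23.2, 14.1 and 18.6 FPKM in U87 and at 9.01, 9.88 and 12.2 FPKM in DBTRG-05MG. TGFBRAP1 ranged in DBTRG-05MG from 8.18 to 10.75 FPKM and in U87 from 3.29 to 10.1 FPKM, and the co-receptor ENG at 29.9 to 45.3 and 23.7 to 33.7 FPKM. Signal-transducing SMADs and adaptors, with 8 tested of 9, had 0 called and medians of 0.05 at 6 h and -0.13 at 48 h.

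The receptor-activated SMAD genes SMAD2 and SMAD3 stood on opposite sides of their 0 h levels in DBTRG-05MG. SMAD2 stood at 4.63, 7.25, 15.1, 16.9 and 14.6 FPKM there and at 7.26, 11.2, 10.1, 8.87 and 10.6 FPKM in U87, above 0 h in all 8 treated libraries. SMAD3 stood at 38.4, 27, 26.5, 18 and 13.6 FPKM in DBTRG-05MG and at 40.7, 37.9, 54.2, 60.6 and 31.5 FPKM in U87. At 48 h the mean log2 difference was 0.98 ± 0.37 for SMAD2 (SE, limma adjusted p = 0.337) and -0.90 ± 0.35 for SMAD3 (limma adjusted p = 0.351). The coactivator genes CREBBP and EP300 stood at 7.91 and 19 FPKM at 48 h in DBTRG-05MG (13.1 and 25.4 FPKM at 0 h) and at 2.19 and 5.42 FPKM in U87 (5.07 and 11 FPKM at 0 h). Other regulators, not all of them negative, with 18 tested of 19, had 0 called and medians of -0.08 at 6 h and -0.10 at 48 h. Of these, the co-repressor TGIF1 went from 14.2 to 6.75 FPKM in U87 and from 21.1 to 25 FPKM in DBTRG-05MG between 0 and 6 h. The deubiquitinase USP11 ranged in DBTRG-05MG from 30.6 to 48.5 FPKM and in U87 from 31 to 55 FPKM. The deubiquitinase USP4 ranged from 13.7 to 18.1 and from 10.3 to 17.8 FPKM. USP11 was above 0 h and USP4 below it in all 8 treated libraries. The ligase WWP2 ranged from 8.66 to 11.7 and from 6.39 to 14.6 FPKM.

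**Figure D4:**
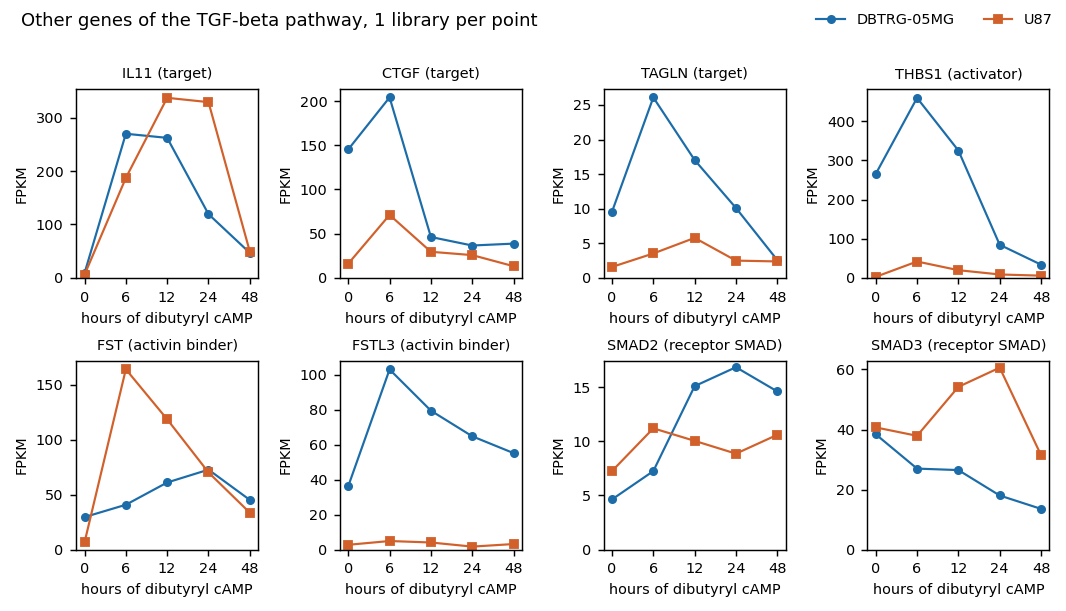
FPKM (vertical axis, linear from 0, own scale in each panel) at 0, 6, 12, 24 and 48 h (horizontal axis, times evenly spaced) for 8 other pathway genes in DBTRG-05MG (circles) and U87 (squares), 1 library per point. CTGF, THBS1 and FSTL3 are highest at 6 h in both lines, and SMAD2 and SMAD3 part in DBTRG-05MG from 6 h on.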

How the data were processed

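Poly(A) RNA of 10 libraries was sequenced, per the labels' protocols. The authors deposited 1 table, whose unit was read as FPKM from its values, since the labels do not name it. HISAT, Bowtie2 and RSEM with the build hg38 are named in the submitters' processing notes, without versions. A value of 0.002 was read as 0. All columns matched 1 sample each.

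The 12352 genes averaging 1 FPKM or more were put on the scale log2(FPKM + 1) and fitted in limma 3.58.1 (R 4.3.3, empirical Bayes with a mean-variance trend); fold changes on this scale understate those of low genes. Comparisons with 0 h used a fit with time as a factor and cell line as a block (libraries of 1 line form a course, which is where the pairing comes from). Trend differences used the product of line and ranked time. Adjusted p-values are Benjamini-Hochberg values over all tested genes with a threshold of 0.05, two-sided. Nothing shows that libraries came from separate cultures, so that p-values measure the spread of these libraries around each fit. For the trend difference this includes any curve in the time course. Folds in the text are ratios of FPKM. The fits were tested on simulated data.

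The members and gene lists were chosen with earlier results of these data known. Named list genes were those called, and otherwise up to 4 per list with the largest mean absolute change among those with a mean of at least 5 FPKM. Likeness took 3 genes per member. Alternatives were the pseudocount, the filter, scaling, the trend in moderation, the block, time as log2 hours, and leaving out each library. Python 3.11.15, pandas 2.3.3 and matplotlib 3.10.9 served for the rest. Positions came from GENCODE 29 (GRCh38) and promoter sequence from RefSeq (GRCh38.p14).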

Additional observations from a re-analysis of the deposited data

Results flagged for a closer look

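TGFB2 was singled out because every treated library of DBTRG-05MG was below its 0 h level while every treated library of U87 was above its own. The mean log2 change of the treated times was -0.17 in DBTRG-05MG and 0.81 in U87, a difference of 0.97. The difference in time trend did not pass limma's test (adjusted p = 0.344), and the difference of the means was not tested. Each mean is read against a single 0 h library.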

How the results depend on the processing

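The count of members called stayed at 0 for each comparison with 0 h under every alternative run, including the fit that drops cell line, which is the block that pairs the libraries here (0 members). For the difference in time trend it ran from 0 to 1 when each library was left out in turn. The 1 was PMEPA1 without the U87 0 h library, at -1.13 log2 units per step (adjusted p = 0.0495, against 0.782 with all libraries), and its estimate ran from -1.13 to 0.14 over the libraries left out, 0.04 without DBTRG-05MG 0 h and 0.14 without U87 48 h. Single values were compared for the 26 member results whose log2 change exceeded its SE or that passed the threshold under an alternative. Of their 442 values, 437 kept their direction and their side of the threshold, and 4 reversed. Smaller changes were left out and no member was called with all libraries, so that this share was partly set in advance. The mean change of TGFB2 was -0.17 over all treated times and -0.11 at 6 h without the U87 0 h library, with upper ends of 0.81 and 0.87. The values without the U87 0 h library are read against the 0 h library of DBTRG-05MG alone. The 6 h value among them also draws on the treated U87 libraries. Median centring, chosen as a check of the counts by size after seeing the data, took the members highest at 6 h in both lines from 2 to 1 (SMAD7 was then highest at 24 h in U87) and the members lower throughout in DBTRG-05MG and higher in U87 from 1 to 0. Its log2 change for SMURF2 in U87 at 24 h was 0.15, against -0.07 as deposited. It left TGFBR1, PMEPA1, SMAD7 and TGFBI as the members above 0 h throughout, beside 6.03% of the tested genes. Over all genes, the number called for the mean of treated times was 3 and ran from 0 (no filter, no block, or without U87 0 h) to 7 (without DBTRG-05MG 6 h or U87 24 h). It was 1 at 6 h, with a range of 0 to 3, and 0 at 48 h, with a range of 0 to 2. For the trend difference it was 2 and ran from 0 (time as log2 hours) to 67 (without U87 0 h), with 7 under median centring, 12 without DBTRG-05MG 0 h and 11 without U87 48 h. SMAD7 and SKIL had the lowest FPKM of the members by their mean, and the fragments behind each member were not counted.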
